A study of Homo sapiens with 24 samples.

Results

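The Rel family comprises the 5 subunits of the transcription factor NF-κB, which are encoded by RELA, RELB, REL, NFKB1 and NFKB2. Their transcripts were measured in RNA that was immunoprecipitated from BEAS-2B cells, a virus-transformed line of human bronchial epithelial cells. The members were taken by gene symbol, and their levels played no part in which symbols belong to the family. Each of the 5 has 1 probe with values on the array, out of 355 probes with values and 384 listed.

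Cells were given TNFα and IFNγ together, each at 50 ng/ml, or were left untreated in PBS, and were harvested after 3 h or 18 h. Lysates were incubated with 3A2, a mouse monoclonal antibody against the RNA-binding protein HuR, or with an IgG1 isotype antibody, here called the HuR IP and the IgG1 IP. Radiolabelled cDNA of the recovered RNA was read on membrane arrays that carry probes for immune and inflammatory genes. The 8 groups are therefore the HuR IP and the IgG1 IP of stimulated cells and of untreated cells, each at 3 h and at 18 h, with 3 arrays per group that carry the replicate numbers 1, 3 and 4 (sets 1, 3 and 4). The design text counts 3 biological replicates. All groups come from 1 cell line, and RNA of the whole lysate was not analysed here, so that a level is that of recovered RNA. No label says whether the HuR and IgG1 arrays of a set came from 1 lysate. The label for the antibody vendor differs between HuR arrays of stimulated cells (R&D) and of untreated cells (Santa Cruz Biotechnology), and its part in any difference was not tested.

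Levels are given as log2 intensity minus the median log2 intensity of the same array, so that 0 is the middle probe of that array and 1 is a level that is 2 times as high. Array medians ran from 2303 to 23848 intensity units and lay 1.41 to 2.57-fold above the dimmest probe of the same array. In RNA from whole cultures, fewer cells that express a transcript and less RNA per cell cannot be told apart. None of 7 listed epithelial markers was measured, so the epithelial origin of the cells could not be checked. Of 10 leukocyte markers 3 were measured: PTPRC lay below the median on every one of the 24 arrays, CD3E was above it on 6 and CD3G on 10.

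All Rel proteins share a DNA-binding and dimerisation region, the Rel homology domain. RELA (p65), RELB and REL (c-Rel) also carry a transactivation domain, whereas NFKB1 and NFKB2 encode the precursors p105 and p100, which are processed to the DNA-binding subunits p50 and p52 and which, unprocessed, retain partner subunits in the cytoplasm. TNF receptors act on the IκB kinase (IKK) complex, which marks IκB inhibitors for destruction and frees dimers of RELA and p50. A slower, non-canonical route processes p100 and frees dimers of RELB and p52. Several of the family's genes, and those of IκB inhibitors, are themselves NF-κB targets.

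Against the median of its array, RELA was above 0 on 24 of 24 arrays, with a median of 1.49 and a highest value of 4.93. Its lowest value, 0.10 in the untreated HuR IP of set 1 at 18 h, lay near the middle probe. RELB was above the median on 21 of 24 arrays (lowest -0.18, median 0.54, highest 1.36). NFKB1, NFKB2 and REL were each above it on 14 of 24 arrays, with medians of 0.04, 0.03 and 0.07, so that these 3 probes lay near the middle of the array. NFKB1 ranged over -0.39 to 1.34, NFKB2 over -0.56 to 1.52 and REL over -0.40 to 0.56. At their dimmest, NFKB1, NFKB2 and REL were 1.11, 1.13 and 1.25-fold above the dimmest probe of the array, and how much of such a value is background was not tested. When the 8 groups were ordered by mean level, each of the 7 pairs of neighbours overlapped for every member. The sets differed as well: they accounted for 31.5% of the variance of RELA over the 24 arrays (set means 0.94, 2.36 and 1.70 in sets 1, 3 and 4), for 48.6% of that of REL and for smaller shares of the others, such as 20.0% for NFKB2 and 21.2% for RELB.

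**Figure D1:**
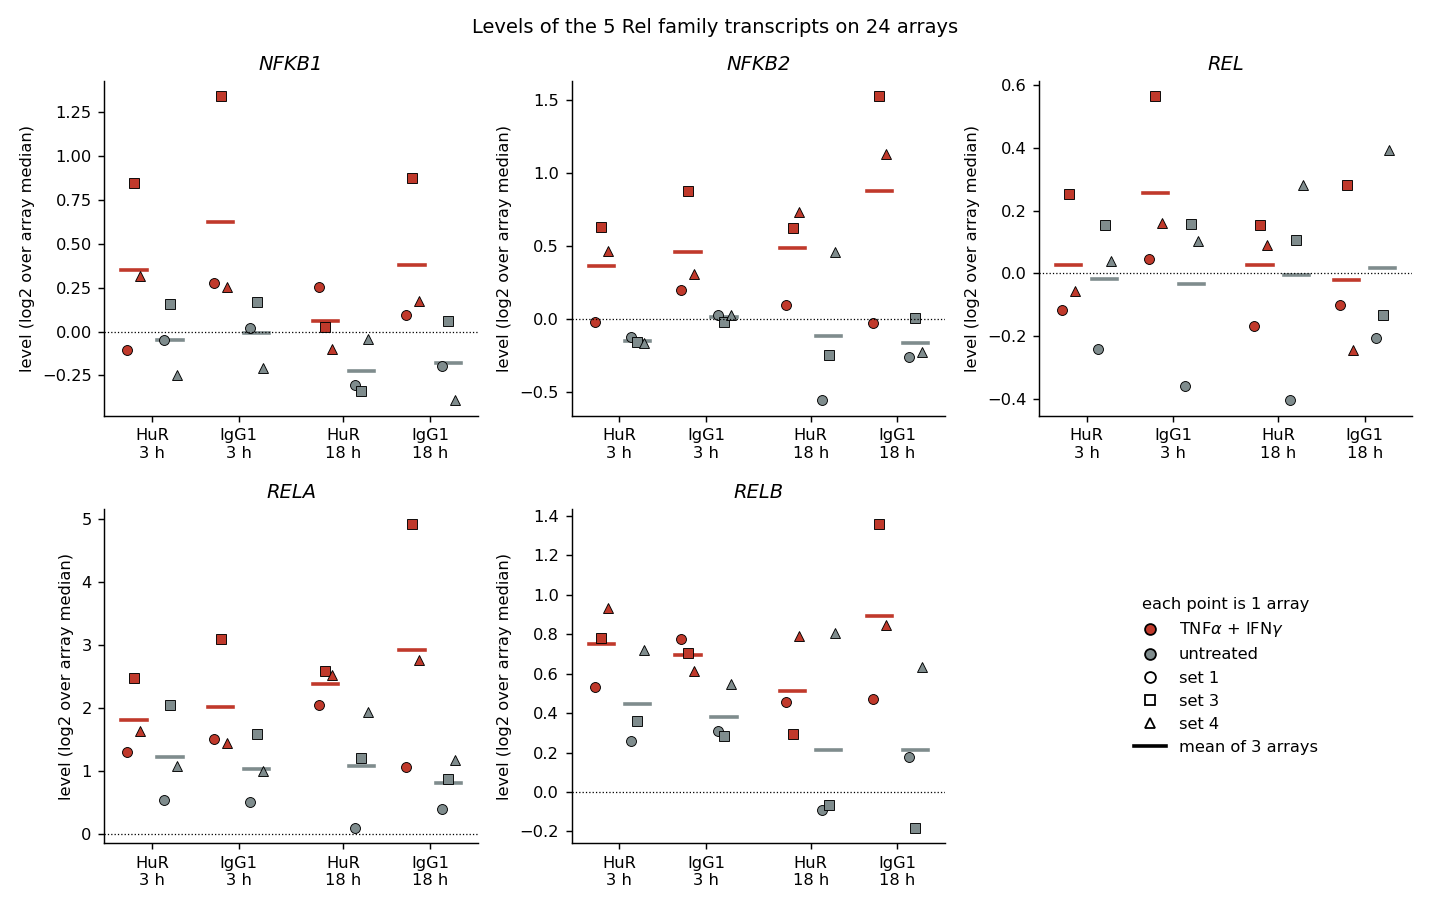
Levels of RELA, RELB, REL, NFKB1 and NFKB2 (log2 intensity over the array median) on each of 24 arrays, with TNFα and IFNγ in red to the left of untreated cells in grey, by immunoprecipitate and time; the point shape gives the set and the bar the mean of 3 arrays. RELA lies above 0 on all 24 arrays and reaches 4.93 on the stimulated IgG1 array of set 3 at 18 h; each panel has its own vertical scale.

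Start-site sequence was available for 4 of the 5 members, in 8 entries of 300 bases each (250 before and 50 after an annotated start, RefSeq, build GRCh38.p14), and RELB had no entry. The κB consensus, the 10-base site of NF-κB, was found by its letters on either strand in 4 of the 8 entries, which belong to NFKB1, NFKB2 and REL. The gamma-activated site (GAS), TTCNNNGAA, which is the same on both strands and is the DNA element of IFNγ signalling, was found in 1 entry, of RELA. Of 35116 start regions of this length 5.91% hold the κB consensus and 7.66% hold TTCNNNGAA. The entries that hold either motif are shown because the cells were given TNFα and IFNγ, whose signals these elements are known to receive. Matching letters are in capitals, and overlapping matches are joined in 1 run; a match describes the letters and is not a measured binding site. They are NFKB1 at chr4:102501109-102501408 (plus strand), NFKB2 at chr10:102394328-102394627 and chr10:102395455-102395754 (plus strand, 2 separate starts), REL at chr2:60881324-60881623 (plus strand) and RELA at chr11:65663808-65664107 (minus strand), each written 5′ to 3′ towards its gene.
NFKB1: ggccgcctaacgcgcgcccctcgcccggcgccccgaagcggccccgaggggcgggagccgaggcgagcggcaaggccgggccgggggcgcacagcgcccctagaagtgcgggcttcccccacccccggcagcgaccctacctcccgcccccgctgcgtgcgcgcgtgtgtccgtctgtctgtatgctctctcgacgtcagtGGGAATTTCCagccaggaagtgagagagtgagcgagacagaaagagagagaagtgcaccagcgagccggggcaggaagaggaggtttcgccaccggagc
NFKB2, upstream start: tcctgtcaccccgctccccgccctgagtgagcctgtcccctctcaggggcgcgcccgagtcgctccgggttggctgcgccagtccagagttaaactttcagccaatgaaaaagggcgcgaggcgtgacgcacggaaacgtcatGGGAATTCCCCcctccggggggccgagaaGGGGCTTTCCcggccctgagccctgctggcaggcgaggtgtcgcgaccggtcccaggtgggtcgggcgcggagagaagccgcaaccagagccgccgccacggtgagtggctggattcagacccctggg
NFKB2, downstream start: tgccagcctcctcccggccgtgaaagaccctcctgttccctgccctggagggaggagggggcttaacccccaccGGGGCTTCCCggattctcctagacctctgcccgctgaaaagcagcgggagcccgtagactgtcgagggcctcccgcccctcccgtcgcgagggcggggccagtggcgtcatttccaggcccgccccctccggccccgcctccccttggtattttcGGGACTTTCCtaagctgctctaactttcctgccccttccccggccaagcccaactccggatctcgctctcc
REL: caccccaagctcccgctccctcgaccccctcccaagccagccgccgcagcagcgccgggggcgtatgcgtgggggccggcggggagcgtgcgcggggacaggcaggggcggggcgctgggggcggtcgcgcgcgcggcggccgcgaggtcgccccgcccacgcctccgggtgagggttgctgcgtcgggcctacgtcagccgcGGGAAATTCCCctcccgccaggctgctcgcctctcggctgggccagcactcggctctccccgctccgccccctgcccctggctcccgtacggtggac
RELA: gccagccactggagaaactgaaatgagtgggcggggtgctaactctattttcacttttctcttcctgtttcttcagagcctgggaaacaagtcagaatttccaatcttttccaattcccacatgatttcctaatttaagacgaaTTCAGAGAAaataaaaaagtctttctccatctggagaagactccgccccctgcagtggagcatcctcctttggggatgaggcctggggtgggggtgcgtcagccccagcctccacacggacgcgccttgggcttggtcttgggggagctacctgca
Counted in bases from the annotated start, the κB match begins at -49 in NFKB1, at -107 and -78 in the upstream NFKB2 entry, at -176 and -21 in the downstream NFKB2 entry and at -47 in REL. The RELA match to TTCNNNGAA begins at -106. No κB match was found by these letters in either RELA entry, which says nothing of other windows.

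RELA, NFKB2, RELB and NFKB1 averaged higher in recovered RNA of cells given TNFα and IFNγ than of untreated cells at both times, by 1.71, 0.82, 0.49 and 0.42 at 18 h and by 0.78, 0.48, 0.31 and 0.52 at 3 h on the log2 scale, while REL differed by -0.00 and 0.17. RELA and NFKB2 at 18 h passed the test with the set as a block, and no member passed in the fit without it. Over the 5 members, both immunoprecipitates and both times there were 20 differences between stimulated and untreated cells, and 19 were above 0, although without centring the arrays NFKB1, NFKB2 and RELB lay below 0 in the IgG1 IP at 18 h (differences of -0.65, -0.17 and -0.53, where the middle of all probes was -1.2). Set by set, 54 of 60 single differences were above 0, and 9 of 12 for REL. These counts are descriptions, since the values share arrays and the share over all probes was not counted. The median difference over all probes was -0.09 in the HuR IP and -0.09 in the IgG1 IP at 3 h. At 18 h it was 0.03 and 0.01. Each of the 20 differences was tested with limma over all 355 probes, and no member passed an adjusted p of 0.05 in any of the 4 comparisons. The lowest adjusted p was 0.162, for NFKB2 in the IgG1 IP at 18 h. Unadjusted p-values were under 0.05 for 0, 1, 0 and 3 members in the HuR IP at 3 h, the IgG1 IP at 3 h, the HuR IP at 18 h and the IgG1 IP at 18 h, beside 17, 20, 21 and 22 of all 355 probes. Past the adjusted threshold were 0.563%, 1.13%, 1.13% and 1.41% of all probes in these same 4 comparisons.

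The replicate numbers were taken to pair the arrays in these comparisons, so each test was also run with the set as a block. With the block RELA and NFKB2 passed in the IgG1 IP at 18 h, and no member passed in the other 3 comparisons. The block let 2.25%, 2.54%, 3.66% and 5.07% of all probes pass in the HuR IP at 3 h, the IgG1 IP at 3 h, the HuR IP at 18 h and the IgG1 IP at 18 h. In 6 of the 20 member comparisons the 3 stimulated arrays all lay above the 3 untreated arrays. These were NFKB2 in the HuR IP at 3 h, where 5.63% of all probes did so, and NFKB1, NFKB2 and RELB in the IgG1 IP at 3 h, again with 5.63% of all probes. The others were RELA in the HuR IP at 18 h, beside 6.2% of all probes, and NFKB1 in the IgG1 IP at 18 h, beside 5.35%.

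Means over both immunoprecipitates gave the narrowest intervals. At 18 h, 3.94% of all probes passed without the block and 6.48% with it, and 2 of the 5 members, RELA and NFKB2, passed with it. At 3 h these shares were 3.38% and 4.79%, and 0 members passed in either fit (limma, with 1 member under an unadjusted p of 0.05 without the block and 3 with it, beside 28 and 39 of all 355 probes). Differences were above 0 in all 3 sets for 4 of 5 members at 18 h, beside 15.8% of all probes, and for 4 of 5 at 3 h, beside 11.8%. REL was the exception at both times. The median over the 5 members was 0.49 at 18 h and 0.48 at 3 h, beside 0.00 and -0.10 over all probes. Where the HuR and IgG1 arrays of a set stem from 1 lysate they are not independent. When they were first averaged per set, neither RELA nor NFKB2 passed at 18 h without the block. Both passed with it (adjusted p of 0.00849 and 0.0432, limma), in a fit chosen after seeing the data. The share of all probes that passed at 18 h in that fit is not given here, so whether these calls stand out from it cannot be judged.

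**Figure D2:**
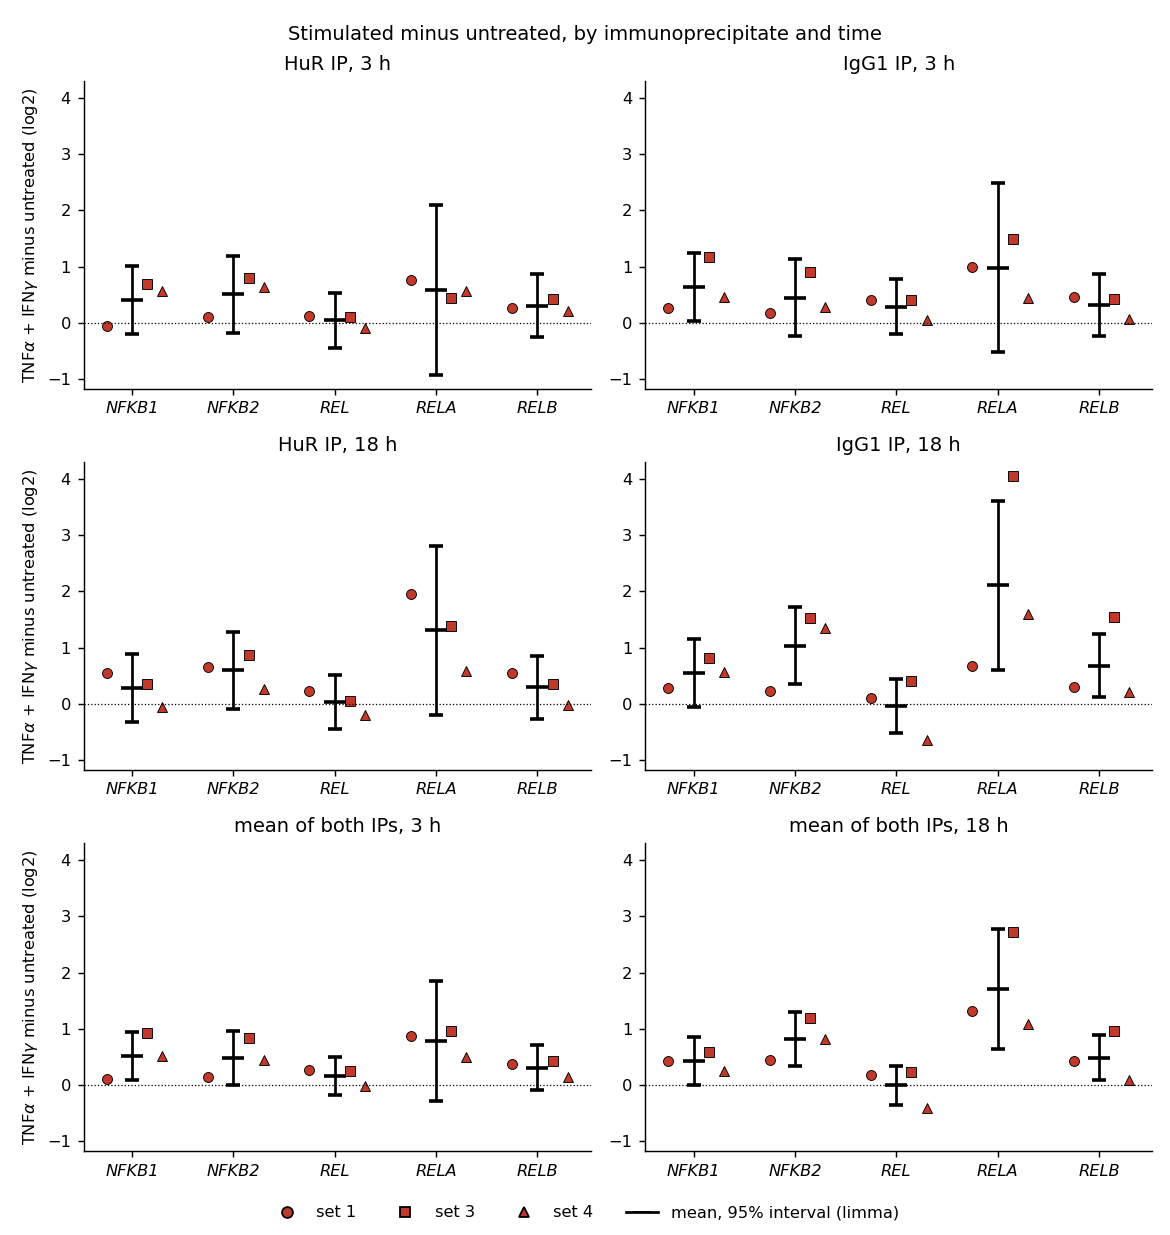
Difference between stimulated and untreated cells (log2, TNFα and IFNγ minus untreated) for the 5 members in each immunoprecipitate and time and for the mean of both immunoprecipitates. Red points are single sets, black bars are means with 95% intervals of the limma fit without a block. The RELA interval at 18 h runs from 0.65 to 2.77 for the mean of both immunoprecipitates, and that of REL from -0.35 to 0.34.

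RELA, which encodes the transactivating subunit of the canonical dimer, reached its highest group mean, 2.93, in the IgG1 IP of stimulated cells at 18 h. In the HuR IP at 18 h its levels were 2.06, 2.60 and 2.53 in sets 1, 3 and 4 of stimulated cells, against 0.10, 1.21 and 1.95 in untreated cells. The groups did not overlap. The IgG1 IP at 18 h gave levels of 1.08, 4.93 and 2.78 in stimulated cells, against 0.40, 0.88 and 1.18 in untreated cells. Each set was higher with stimulation, and the groups overlapped because the stimulated array of set 1 lay below the untreated array of set 4. The differences were 1.31 ± 0.72 in the HuR IP (SE, n = 3 arrays per group, limma adjusted p = 0.996, with the block 0.225) and 2.11 ± 0.72 in the IgG1 IP (adjusted p = 0.219, with the block 0.0158).

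Averaged over both immunoprecipitates, RELA was higher by 1.71 ± 0.51 at 18 h (SE, 3.27-fold, 95% interval 0.65 to 2.77). The single sets gave 1.32, 2.72 and 1.09. The limma adjusted p was 0.0738 without the block and 0.00255 with it. With the block and without set 3 the difference was 1.20 (adjusted p = 0.0531), and without set 4 it was 2.02 (adjusted p = 0.0799), so the call needed both sets; it held without set 1 (1.90, adjusted p = 0.00763). Quantile normalisation gave a smaller difference of 0.99, which passed with the block (adjusted p = 0.000225) and not without it (0.151). Without the block RELA also passed when set 1 was left out (adjusted p = 0.0243), when the untreated HuR array of set 4 was (0.0418) and when the stimulated IgG1 array of set 1 was (0.00268).

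The stimulated IgG1 array of set 3 carried the largest RELA value. Without that 1 array the IgG1 difference at 18 h was 1.36 with the block (adjusted p = 0.136), and it also lost its call without the untreated IgG1 array of set 3 (1.75, adjusted p = 0.136). In stimulated cells the summed level of the 3 measured leukocyte markers ran from 2.21 to 10.3 times the array median in this group, against 2.29 to 4.61 in untreated cells. CD3G accounted for the upper end, with levels of 3.11, 2.81 and -0.54 in sets 1, 3 and 4 of the stimulated IgG1 IP at 18 h, against 1.501, 0.09 and -0.61 in untreated cells, while PTPRC was below the median on every array. CD3G was high on the array where RELA was highest and also on the set 1 array where RELA was lowest in its group, and its part in the RELA value was not tested. In set 1 the raw intensity ran the other way: RELA read 6378 units in stimulated cells and 15575 units in untreated cells, on arrays with medians of 3021 and 11831 units.

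At 3 h RELA was again higher in every set. In the HuR IP it had levels of 1.31, 2.49 and 1.65 in sets 1, 3 and 4 of stimulated cells, against 0.55, 2.06 and 1.09 in untreated cells. The IgG1 IP gave 1.52, 3.10 and 1.46 in stimulated cells, against 0.52, 1.60 and 1.01 in untreated cells. The groups overlapped in both immunoprecipitates, since set 3 was highest in stimulated and in untreated cells alike. The mean difference over both was 0.78 ± 0.51 (SE, 95% interval -0.28 to 1.85, limma adjusted p = 0.979, with the block 0.328).

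NFKB2, which encodes p100, the precursor of p52 in the non-canonical route, showed the same kind of difference at 18 h on a smaller scale. In the IgG1 IP at 18 h it had levels of -0.03, 1.52 and 1.13 in sets 1, 3 and 4 of stimulated cells, against -0.26, 0.00 and -0.23 in untreated cells. In the HuR IP at 18 h the levels were 0.09, 0.62 and 0.73 in stimulated cells, against -0.56, -0.25 and 0.46 in untreated cells. Stimulated arrays were higher than the untreated array of their own set in each case, and the groups overlapped in both immunoprecipitates. The differences were 1.04 ± 0.33 in the IgG1 IP (SE, n = 3 arrays per group, limma adjusted p = 0.162, with the block 0.0302) and 0.60 ± 0.33 in the HuR IP (adjusted p = 0.996, with the block 0.405).

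The mean over both immunoprecipitates for NFKB2 at 18 h was 0.82 ± 0.23 (SE, 1.76-fold, 95% interval 0.33 to 1.30), with 0.44, 1.20 and 0.81 in the single sets. Its limma adjusted p was 0.0523 without the block and 0.00707 with it. With the block the call was lost without set 3 (0.63, adjusted p = 0.323) and without set 4 (0.82, adjusted p = 0.192) and held without set 1 (1.00, adjusted p = 0.00377). As given for RELA, fewer of all probes passed in that fit without set 3 and none without set 4. Background correction by normexp raised the NFKB2 difference to 2.06, which passed in both fits (adjusted p = 0.0191, with the block 0.00114). The IgG1 difference alone passed with the block as long as no array of set 3 or set 4 was left out: without any 1 of those 4 arrays its adjusted p ran from 0.103 to 0.28. It also missed the threshold with the block under 75th percentile centring (0.127) and normexp (0.0799). Without the block the mean at 18 h passed under quantile normalisation (adjusted p = 0.0127), without dim probes (0.0457) and without set 1 (0.00423). It passed as well without the untreated HuR array of set 4 (0.0193), the stimulated IgG1 array of set 1 (0.00104) or the stimulated HuR array of set 1 (0.0375).

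At 3 h NFKB2 was the only member whose groups separated in the HuR IP, with levels of -0.02, 0.63 and 0.47 in stimulated cells, against -0.13, -0.16 and -0.16 in untreated cells (sets 1, 3 and 4). In the IgG1 IP they separated too, with 0.20, 0.88 and 0.31 in stimulated cells, against 0.03, -0.02 and 0.03 in untreated cells. The untreated values at 3 h lay close together in each immunoprecipitate, from -0.16 to -0.13 in the HuR IP and from -0.02 to 0.03 in the IgG1 IP. The mean difference was 0.48 ± 0.23 (SE, limma adjusted p = 0.61, with the block 0.233). All 12 single-set differences of NFKB2 were above 0, from 0.11 to 1.52, and so were all 12 of RELA, from 0.43 to 4.05.

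NFKB1, which encodes p105, the precursor of p50, differed by 0.52 at 3 h and by 0.42 at 18 h between stimulated and untreated cells. In the IgG1 IP at 3 h its levels were 0.28, 1.34 and 0.25 in sets 1, 3 and 4 of stimulated cells, against 0.02, 0.17 and -0.21 in untreated cells. The groups did not overlap, and the difference was 0.63 ± 0.29 (SE, n = 3 arrays per group, limma adjusted p = 0.776, with the block 0.264). In the HuR IP at 3 h the levels were -0.10, 0.85 and 0.32 in stimulated cells, against -0.05, 0.16 and -0.25 in untreated cells, and set 1 was not higher with stimulation. The mean over both at 3 h was 0.52 ± 0.20 (SE, 95% interval 0.09 to 0.94, adjusted p = 0.325, with the block 0.0894), and it passed with array weights (0.62, adjusted p = 0.0209) and, in the fit with the block, without set 1 (0.72, adjusted p = 0.0464). Without set 3 it was 0.31 (adjusted p = 0.999, with the block 0.89), and without the stimulated IgG1 array of set 3 it was 0.34 (0.857). Without that array the IgG1 difference alone was 0.27 (adjusted p = 0.99).

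At 18 h NFKB1 had levels of 0.25, 0.03 and -0.10 in the HuR IP of stimulated cells, against -0.30, -0.34 and -0.04 in untreated cells (sets 1, 3 and 4). In the IgG1 IP the stimulated levels were 0.09, 0.88 and 0.17, against untreated levels of -0.19, 0.06 and -0.39, with no overlap. The mean over both was 0.42 ± 0.20 (SE, 1.34-fold, limma adjusted p = 0.579, with the block 0.196). The mean moved with the scaling: it was 0.04 with uncentred arrays, -0.06 with the second deposited table and 1.31 after normexp, and it passed under none of these 3 (adjusted p = 0.97, 0.933 and 0.181).

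RELB, the partner of p52, lay above the array median in most arrays, and 11 of its 12 single-set differences were above 0. In the IgG1 IP at 3 h its levels were 0.77, 0.70 and 0.61 in sets 1, 3 and 4 of stimulated cells, against 0.31, 0.28 and 0.55 in untreated cells, with no overlap. At 18 h that IP gave 0.47, 1.36 and 0.84 in stimulated cells, against 0.18, -0.18 and 0.64 in untreated cells, and the groups overlapped. The difference there was 0.68 ± 0.27 (SE, n = 3 arrays per group, limma adjusted p = 0.405, with the block 0.116). The mean over both immunoprecipitates was 0.49 ± 0.19 at 18 h (SE, 1.40-fold, 95% interval 0.10 to 0.89, adjusted p = 0.262, with the block 0.0814) and 0.31 ± 0.19 at 3 h (adjusted p = 0.979, with the block 0.509). The HuR IP gave 0.30 at each time, with stimulated levels of 0.45, 0.29 and 0.79 at 18 h against untreated levels of -0.09, -0.07 and 0.81, so that set 4 was not higher with stimulation. The mean at 18 h passed without the untreated HuR array of set 4 (0.64, adjusted p = 0.0418, with the block 0.0249) and, with the block, without the stimulated IgG1 array of set 1 (0.0431). Without set 3 it was 0.26 (adjusted p = 0.983, with the block 0.715). It was 0.11 with uncentred arrays, 0.003 with the second deposited table and 1.01 after normexp.

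REL, which encodes c-Rel, a subunit best known from lymphoid cells, was the member with the smallest differences. Its levels in stimulated cells ran from -0.12 to 0.56 at 3 h and from -0.24 to 0.28 at 18 h, over both immunoprecipitates, against -0.36 to 0.16 and -0.40 to 0.39 in untreated cells. The ranges overlapped at both times. The mean difference was 0.17 ± 0.16 at 3 h (SE, limma adjusted p = 0.979) and -0.00 ± 0.16 at 18 h (adjusted p = 0.996), with an interval at 18 h of -0.35 to 0.34. Its sets differed in sign at 18 h (0.17, 0.23 and -0.41). Of its 12 single-set differences 9 were above 0, from -0.64 to 0.41.

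Whether the response itself changed between the times was tested as a difference of differences, averaged over both immunoprecipitates. The response at 18 h exceeded that at 3 h by 0.93 ± 0.72 for RELA (SE, 95% interval -0.58 to 2.43) and by 0.34 ± 0.33 for NFKB2, and the differences were 0.18 ± 0.27 for RELB, -0.09 ± 0.29 for NFKB1 and -0.17 ± 0.23 for REL. RELA was larger at 18 h in all 3 sets (0.44, 1.75 and 0.58) and so was NFKB2 (0.31, 0.35 and 0.36). REL was smaller at 18 h in all 3 sets (-0.09, -0.02 and -0.40), and the sets of RELB and NFKB1 differed in sign. How many of all probes had 1 sign in all 3 sets here was not counted. No member passed (limma adjusted p = 0.999 for each, with the block 0.995, and 0 of 5 under an unadjusted 0.05), beside 0.282% of all probes. In untreated cells the 18 h levels differed from those at 3 h by -0.18 ± 0.51 for RELA, -0.20 ± 0.19 for RELB, -0.17 ± 0.20 for NFKB1, -0.07 ± 0.23 for NFKB2 and 0.03 ± 0.16 for REL. None of these passed either (adjusted p = 0.996 for each), and 0% of all probes did, with 4 of 355 under an unadjusted 0.05.

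Set against the IgG1 control, no member passed the test for a higher or lower level in the HuR IP. Averaged over the 4 conditions, the HuR IP minus the IgG1 IP was -0.07 ± 0.36 for RELA (SE, 95% interval -0.82 to 0.68), -0.06 ± 0.13 for RELB (-0.34 to 0.22), -0.05 ± 0.12 for REL (-0.29 to 0.19), -0.17 ± 0.14 for NFKB1 (-0.47 to 0.13) and -0.15 ± 0.16 for NFKB2 (-0.49 to 0.19). The limma adjusted p was 0.992 for each, and with the block it ran from 0.692 to 0.964. For RELB, REL, NFKB1 and NFKB2 the upper bounds of this centred mean were at most 0.22, and that of RELA, with its wider spread, was 0.68. These bounds hold for the mean over the 4 conditions in the fit without a block. Intervals in single conditions were wider, such as an upper bound of 0.73 for NFKB2 in untreated cells at 18 h. Over all probes 0% passed, with 12 of 355 under an unadjusted p of 0.05 and no member among them. Because each array was centred on its own median, a gain or loss common to most probes of the HuR IP would not appear in these values.

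**Figure D3:**
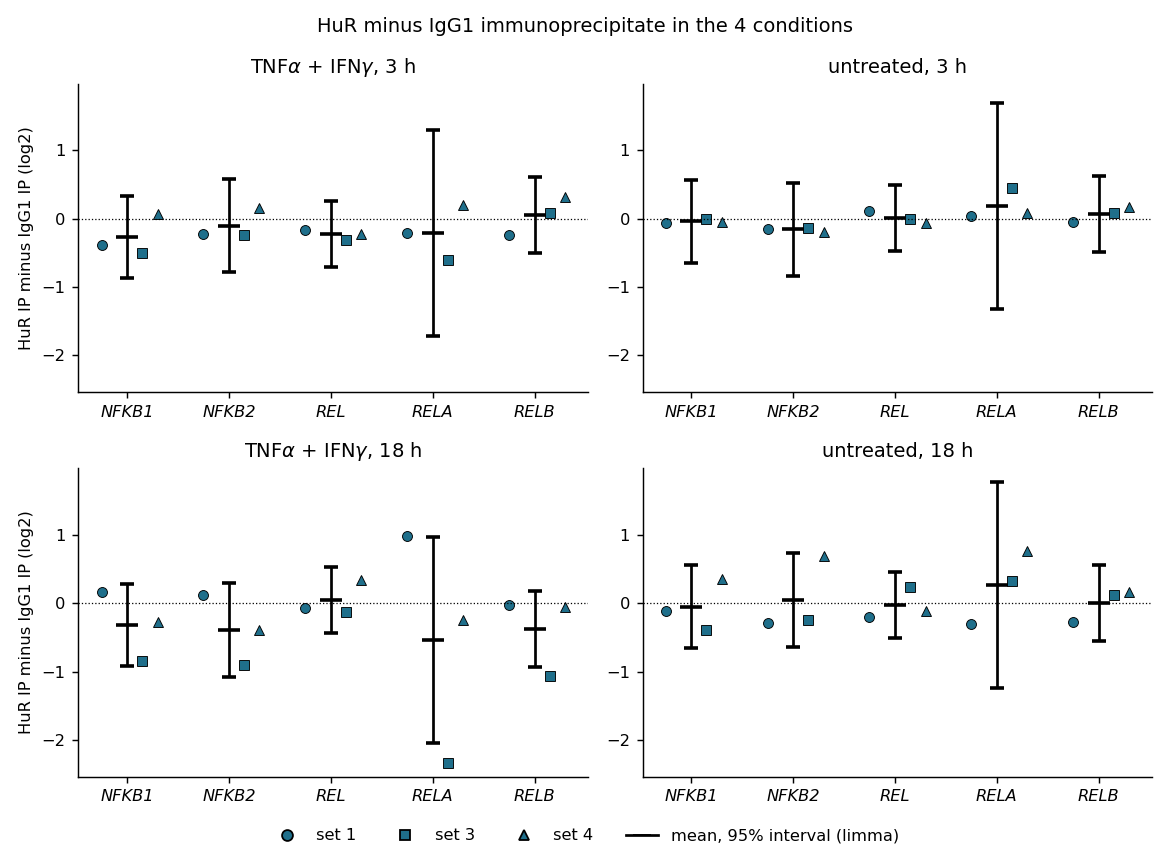
HuR IP minus IgG1 IP (log2) for the 5 members in the 4 conditions, with TNFα and IFNγ to the left of untreated cells. Blue points are single sets, black bars are means with 95% intervals of the limma fit. The set 3 point of RELA in stimulated cells at 18 h lies at -2.33, and every interval includes 0.

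In the single conditions the antibodies differed little for untreated cells at 3 h, where the 15 single-set values ran from -0.19 to 0.45. NFKB2 differed by -0.15, -0.14 and -0.19 in sets 1, 3 and 4 there (limma adjusted p = 0.999). The spread was widest in stimulated cells at 18 h, where RELA differed by 0.98, -2.33 and -0.25, RELB by -0.02, -1.07 and -0.05, NFKB1 by 0.16, -0.85 and -0.27, NFKB2 by 0.12, -0.90 and -0.40 and REL by -0.07, -0.13 and 0.33. Set 3 held the lowest value of each member there, and the IgG1 array of set 3 was the highest of its group for all 5. Without that array the RELA difference was 0.47, against -0.53 with it. The scaling mattered as well in this condition: with uncentred arrays the differences were 0.84 for RELA, 0.99 for RELB, 1.42 for REL, 1.05 for NFKB1 and 0.98 for NFKB2, where the middle of all probes was 1.35. With the second deposited table they were 1.10, 1.25, 1.68, 1.31 and 1.24, beside 1.61 over all probes. No member passed in any of the 4 conditions (limma adjusted p = 0.99 to 0.999, 0 members under an unadjusted 0.05). All probes gave 0% in stimulated cells at 3 h, 0% in untreated cells at 3 h, 0% in stimulated cells at 18 h and 0% in untreated cells at 18 h, with 0, 1, 11 and 0 of 355 under an unadjusted 0.05.

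The change of the HuR to IgG1 difference with stimulation did not pass for any member. The difference in stimulated cells minus that in untreated cells was -0.40 ± 1.01 for RELA at 3 h and -0.80 ± 1.01 at 18 h (SE), with intervals of -2.52 to 1.73 and -2.92 to 1.33. The sign changed when single arrays were left out and with the scaling. At 3 h it was 0.14 without the stimulated IgG1 array of set 3, 0.02 without the untreated HuR array of set 3 and 0.07 under quantile normalisation. At 18 h it was 0.20 without the stimulated IgG1 array of set 3, 0.86 with uncentred arrays and 1.18 with the second table. For the other 4 members it ran from -0.25 to 0.06 at 3 h and from -0.44 to 0.07 at 18 h. Uncentred arrays gave 1.38 for NFKB1, 1.21 for NFKB2, 1.72 for REL and 1.27 for RELB at 18 h, beside 1.66 over all probes. In the second table they were 1.71, 1.54, 2.05 and 1.60, beside 1.99 over all probes. In the centred fit the limma adjusted p was 0.999 at 3 h and 0.994 at 18 h for each member. No probe of the array passed at either time (0% and 0%, with 0 and 0 of 355 under an unadjusted 0.05), and such wide intervals would also hold sizeable changes for RELA.

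The other measured genes of the pathway were taken from lists chosen with earlier results of these data known, so their counts are descriptions. Of 9 listed NF-κB inhibitors 5 were measured, all 5 were above 0 at both times, and their median difference over both immunoprecipitates was 0.93 at 3 h and 0.80 at 18 h, beside -0.10 and 0.00 over all probes. TNFAIP3, which encodes the ubiquitin-editing protein A20 that restrains the IKK complex, rose at 3 h by 1.67 ± 0.31 (SE, limma adjusted p = 0.00249) and was higher by 0.96 ± 0.31 at 18 h (adjusted p = 0.114). NFKBIA, which encodes IκBα, was higher by 2.16 ± 0.80 at 3 h and by 2.43 ± 0.80 at 18 h. Its adjusted p was 0.26 and 0.133 at these times, and 0.00143 and 0.000298 with the block. BCL3, an atypical IκB that binds p50 and p52, passed with the block alone, with 0.93 at 3 h and 0.80 at 18 h (adjusted p of 0.00994 and 0.0254).

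Of 28 listed members of the IKK complex and its upstream transducers 22 were measured, and 0 passed at 3 h or 18 h in limma with or without the block. Their median difference was -0.11 at 3 h and 0.00 at 18 h, beside -0.10 and 0.00 over all probes, and the single values ran from -0.36 to 0.45. Of 25 listed NF-κB inducible transcripts 22 were measured, and 18 were above 0 at 3 h and 17 at 18 h. Past the adjusted threshold, 9 were higher at 3 h, 7 were higher at 18 h and none was lower. The shares of all probes that passed at these times were 3.38% and 3.94%. At 3 h the transcripts that passed included IRF1, an interferon-regulated transcription factor (2.72 ± 0.36, SE, limma adjusted p = 0.000162), IL6 (1.74 ± 0.27) and CXCL8 (3.97 ± 0.62). At 18 h they included the chemokines CCL5 (3.47 ± 0.49, adjusted p = 0.000374) and CCL2 (4.05 ± 0.63). The list medians were 0.57 at 3 h and 0.64 at 18 h, beside -0.10 and 0.00 over all probes.

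Over the 24 arrays, with the mean of each set removed, RELA, NFKB2 and RELB followed each other most closely. Pearson's r was 0.90 between RELA and NFKB2, 0.872 between RELA and RELB and 0.789 between NFKB2 and RELB. NFKB1 had r of 0.749 with RELB, 0.734 with NFKB2 and 0.663 with RELA. REL stood apart, with r from 0.149 to 0.48 to the other members. These values are descriptions, since all points share the stimulation, the arrays and the centring. The r of RELA with NFKB2 was 0.926 without set 1.

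**Figure D4:**
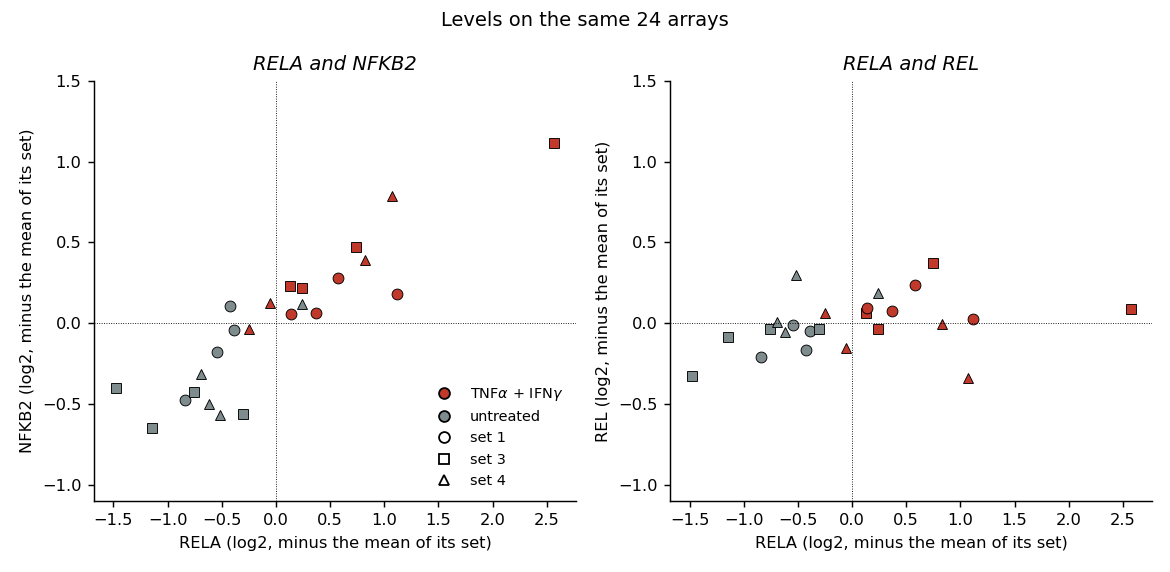
RELA against NFKB2 (left) and against REL (right) on the same 24 arrays, as log2 level minus the mean of its set; red points are TNFα and IFNγ, grey points untreated cells, and the shape gives the set. RELA and NFKB2 run together (r = 0.90 over 24 arrays) and RELA and REL much less (r = 0.331).

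By the same r over 24 arrays, the genes most like NFKB2 were NFKBIA (0.924), IL15RA, a subunit of the receptor for interleukin 15 (0.901), and RELA (0.90). RELA was followed by NFKB2 (0.90), NFKBIA (0.887) and BCL3 (0.881), and RELB by RELA (0.872), the Toll-like receptor adaptor MYD88 (0.85) and NFKBIA (0.821). NFKB1 was most like IL6 (0.83), the cell-cycle inhibitor CDKN1A (0.826) and IRF1 (0.816). For REL the closest were PLAU (0.596), TGFB1 (0.566) and TONSL (0.548). The order was not stable for every member. With set means kept, TONSL was at position 82 for REL and RELA at position 10 for RELB. Without set 1, NFKBIA was at position 14 for RELB. For RELA, NFKB2 was at position 2 in both settings. The median r over all genes lay between -0.01 and 0.06 for the 5 members.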

How the data were processed

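The data are 24 membrane arrays of RNA recovered with an anti-HuR or an IgG1 antibody from BEAS-2B cells. The main table holds the intensity of each probe as deposited by the authors, in whole numbers and without normalization per its own label; image analysis and background treatment were not given in the sources used here. A second table deposited by the authors holds the same intensity times 1 factor per array (0.542 to 3.64) and served as an alternative. Probes were named through their accession in the gene table of GRCh38.p14 (342 of 355 matched). For all 355 probes with values, log2 intensity minus the array median was fitted with limma 3.58.1 in R 4.3.3 (lmFit, eBayes) over all 24 arrays. Each of the 8 groups had its own mean in the model, without a block. The p-values were adjusted by Benjamini-Hochberg over the 355 probes in each of 15 comparisons at a threshold of 0.05. The test was tried on simulated data with independent noise on each array and no set effects. That trial does not cover data with sets such as these. The number of arrays limits the precision.

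Arrays with the same replicate number are called a set here. The deposited array labels also number sets 1, 3 and 4, the same as the replicate numbers, without saying what a set is. Deviations from group means correlated between arrays of a set with a median r of 0.643 (other sets -0.473). With 3 arrays per group the deviations cancel out within a group, so the negative value is partly built in. Every pair in the 4 comparisons of stimulated with untreated cells lay between 0.463 and 0.819. Of 84 pairs in all, 82 were over 0.1. The lowest, 0.0334, joins both antibodies in stimulated cells at 18 h. For levels, the median r was 0.75 within a set, 0.766 between sets 3 and 4, and 0.394 between set 1 and the others. These values cannot tell pairing within each of the 3 sets from set 1 alone standing apart. The replicate numbers were taken to pair these arrays, and the fit with the set as a block stands beside the other where it changes a call.

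The family's members follow from their symbols, but the choice of this family and of the gene lists was made with earlier results of these data known. Named genes are the 5 members, NFKBIA, TNFAIP3, up to 4 list genes per comparison that passed, by adjusted p, and the 3 genes most like each member; BCL3 is named outside this rule because the block changes its call. Of the genes that meet it, 1 is not reported here.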

Additional observations from a re-analysis of the deposited data

How the results depend on the processing

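For the 5 members, 1930 values were recomputed under alternatives over all 15 comparisons. Of these 195 changed sign, 59 of them for REL. No member had passed in the main fit, so there was no call there to reverse. Under alternatives 76 values passed, and none of them had the opposite sign to the main fit. In the 4 comparisons of stimulated with untreated cells and their 2 means, RELA, RELB, NFKB1 and NFKB2 changed sign in 7 of 664 values, all from uncentred arrays or the second deposited table, where the median of all probes in the IgG1 IP at 18 h was -1.2 and -1.47. Array weights let NFKB1 and NFKB2 pass at 3 h (mean of both antibodies, adjusted p = 0.0209 and 0.01, limma) and RELA at 18 h (0.00532), as did 75th percentile centring for RELA at 18 h (0.0263); RELB passed at 18 h with the block and quantile normalisation (0.0151). Probes near the dimmest limit NFKB1, NFKB2 and REL most. The following counts are of all 355 probes that passed, in the order HuR IP 3 h, IgG1 IP 3 h, HuR IP 18 h, IgG1 IP 18 h, mean 3 h, mean 18 h, where the fit without a block gave 2, 4, 4, 5, 12 and 14, and 1 for the change of response with time. With the set as a replicate block they were 8, 9, 13, 18, 17 and 23. With array weights they were 16, 18, 11, 20, 28 and 23, and 3 for the change of response. Other counts are given only where they moved by over 1.5 times. Uncentred arrays gave 1 and 1 at 3 h in the HuR and IgG1 IP, 0 in the IgG1 IP at 18 h, 5 for the mean at 18 h and 0 for the change of response. Quantile normalisation gave 7, 7 and 9 in the first 3 and 1 for untreated 18 h against 3 h. Centring on the 75th percentile gave 9, 7 and 11 in the first 3, and normexp 11 in the HuR IP at 18 h. The second table gave 7 and 9 in the HuR IP at 3 h and 18 h, 0 in the IgG1 IP at 18 h, 7 for the mean at 18 h, 25 for HuR against IgG1 in stimulated cells at 18 h and 2 for HuR against IgG1 over the 4 conditions. Fitting only the groups compared gave 0 in the IgG1 IP at 3 h, 2 and 0 in the HuR and IgG1 IP at 18 h and 8 for the mean at 18 h. Antibodies averaged per set gave 6 and 9 for the means, and 0 for the change of response with and without the block. The block gave, in the IgG1 IP and the mean at 18 h, 21 and 56 with quantile normalisation, 13 and 22 with the 75th percentile and 15 and 28 with normexp. Leaving out sets or arrays gave 0 to 19, 0 to 18, 0 to 14, 0 to 30, 0 to 24 and 0 to 32 for the 6 in order, 0 to 5 for the change of response and 0 to 0 for the others. For the mean at 18 h the count was 27 without set 1, 3 without set 3 and 0 without set 4, and with the block 32, 12 and 0; with the block and single arrays left out it was 26 without the untreated HuR array of set 4 or the stimulated HuR array of set 3 and 27 without the stimulated IgG1 array of set 1. The cause of these shifts was not tested. The block combined with leave-outs, other scalings or averaged antibodies was chosen after seeing the data.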
